A study of Mus musculus with 8 samples.

Results

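Lenses that lacked α3 connexin 46 (α3Cx46, gene Gja3) were compared between the 129SvJae and the C57BL/6J mouse strains. The members are the 4 knockout (KO) arrays of the 8 arrays in the series, with 2 arrays of each strain, and the strain difference was read in every probe set that was measurable in them. In C57BL/6J KO lenses, 7 probe sets were higher and 1 was lower than in 129SvJae KO lenses at an adjusted p under 0.05, out of 9059 tested (0.0773% and 0.011%). The 7 were those of the growth arrest transcript Gas5, of one sequence of the γ-crystallin gene Cryge, of the snoRNA host Snhg6, of the collagen chain gene Col6a3, and of Spg21, Pla2g12a and AI506816. The 1 lower probe set was that of tropomyosin 4 (Tpm4). All 8 differed in the same direction between the wild-type (WT) lenses of the strains. A fit with a block for the scan session of the arrays called 8 higher and 7 lower. The lean to higher calls therefore depends on the fit.

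Each array was hybridized with total RNA of a pool of lenses from mice of both sexes aged 10 days. The KO mice of either background carried a disrupted Gja3 gene, and the construct held a protamine polyadenylation sequence. The WT lenses of both strains, also with 2 arrays each, carried the intact gene and no treatment was given to any group. The labels and the methods do not name separate litters for the replicate pools, so that p-values measure the spread between these arrays, which may be technical. The study compared the strains because the nuclear opacity of KO mice is severe in 129SvJae and mild in C57BL/6J, and it took the lenses before an opacity could be seen.

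Connexins are the subunits of gap junctions, the channels through which the cells of the avascular lens share ions and metabolites. Fiber cells make α3Cx46 and α8Cx50, and epithelial cells make α1Cx43. Fiber cells fill their cytoplasm with α-, β- and γ-crystallins and lose their organelles, so that proteins of the lens core are kept for life. Calcium-dependent and lysosomal proteases, chaperones and the ubiquitin pathway are the systems through which lens proteins are known to be cut, held soluble or removed.

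Sequence is shown for the 2 genes with the largest ratios among the 8 called probe sets. Gas5 is a non-coding host transcript whose introns hold snoRNAs, and such hosts typically start their RNA in a run of C and T. The stretch from 80 bases before to 40 bases after its annotated start is at chr1:161035086-161035205 on the plus strand (RefSeq, GRCm38.p6), with the run of C and T that spans the start in capitals.
Gas5: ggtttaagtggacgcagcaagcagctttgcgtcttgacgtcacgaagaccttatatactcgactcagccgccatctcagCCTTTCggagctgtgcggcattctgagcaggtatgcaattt
The letters CCTTTC stood at this position in 20 of the 32851 annotated promoters, or 0.0609%. They occurred on either strand anywhere in the 300 bases of 23.8% of promoters. A further annotated start of Gas5 lies upstream and does not hold the run there.

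The γ-crystallin genes are shown because they are near copies of each other. The bases given lie before the annotated start, so that they do not show which transcripts a probe set of Cryge measures. The 100 bases before the annotated start of Cryge (chr1:65051164-65051263, minus strand), of Crygd (chr1:65063441-65063540, minus strand) and of Crygf (chr1:65926422-65926521, plus strand) are given from the same assembly. Capitals mark the longest stretch that all 3 hold, of 33 bases.
Cryge: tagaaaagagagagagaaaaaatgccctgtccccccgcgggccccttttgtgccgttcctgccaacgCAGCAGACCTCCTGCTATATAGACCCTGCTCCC
Crygd: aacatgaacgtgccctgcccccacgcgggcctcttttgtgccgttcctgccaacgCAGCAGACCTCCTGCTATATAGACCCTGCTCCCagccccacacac
Crygf: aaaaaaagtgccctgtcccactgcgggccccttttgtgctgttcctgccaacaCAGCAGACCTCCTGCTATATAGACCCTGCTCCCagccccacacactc
The shared stretch holds the letters TATATA, which read the same on both strands. These letters were found in the 100 bases before the start in 2.19% of all annotated promoters. Gas5 held them as well, at the start shown.

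The array carried 12488 probe sets, of which 66 were the maker's controls. Values are signals scaled by the authors to a mean of 250, and a probe set was tested if the mean signal of a KO group was above 50. This left 9059 probe sets of 12422, and 3363 were not tested. Of the tested ones, 7541 were above that level in both strains, 624 in 129SvJae KO alone and 894 in C57BL/6J KO alone. The lowest tested mean was 50.05 and the highest that was not tested was 50. Calls were made in limma where the p-value, adjusted after Benjamini and Hochberg over all tested probe sets, was under 0.05. The second rule used the fold and level criteria of the study's methods, a fold of at least 1.8 between group means with limma's unadjusted p of at most 0.01.

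The replicate number coincided with the scan session recorded for the KO arrays, with one array of each strain in either session. Spearman's correlation over the tested probe sets was 0.869 between the 129SvJae KO arrays and 0.852 between the C57BL/6J KO arrays. Between strains it was 0.834 for the replicate 1 arrays and 0.921 for the replicate 2 arrays, so that arrays of one strain were not always the most alike. Ratios are therefore also given within a session. The median log2 ratio of all tested probe sets was 0.03, with quartiles of -0.28 and 0.39.

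The targeted gene was read first. Gja3 had signals of 472.8 and 445.1 in 129SvJae KO, against 448.2 and 519.8 in C57BL/6J KO, below the WT signals, which were 1101 and 3383 in 129SvJae and 1969 and 3276 in C57BL/6J. The KO arrays of the strains overlapped, with a log2 ratio of 0.07 (SE 0.42). Prm1, which encodes the sperm protein protamine 1, had signals of 1583 and 2169 in 129SvJae KO, against 1387 and 1341 in C57BL/6J KO. Its WT signals were 387.3 and 14.5 in 129SvJae and 10 and 4.7 in C57BL/6J. No difference between the KO strains was detected in either gene (Prm1 log2 ratio -0.44, SE 1.06, adjusted p 0.999).

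The tissue was checked on marker genes. The 5 fiber cell markers on the array, among them the water channel gene Mip and the beaded filament gene Bfsp1, summed to 127600 and 98340 in 129SvJae KO, against 131700 and 114100 in C57BL/6J KO. The 7 epithelial markers summed to 16840 and 15870, and to 16590 and 18000. Other cell types were dim by comparison. The 4 photoreceptor markers summed to 387.4 and 86.5 in 129SvJae KO, against 193.8 and 151.4 in C57BL/6J KO, with Rcvrn under 50 on all 4 arrays. Leukocyte markers summed to between 285.8 and 551.6, with Ptprc, Lyz2 and Cd3e under 50 throughout. The 5 fibroblast markers summed to 672.4 and 544.8 in 129SvJae KO, against 939.8 and 726.9 in C57BL/6J KO, with Col3a1 under 50 on all 4 arrays. The 4 endothelial markers summed to 432.2 and 224, and to 575.3 and 316.4. In bulk RNA, fewer cells of a type and less RNA per cell cannot be told apart.

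The 8 called probe sets were 0.0883% of those tested. The plot of their signals on all arrays shows the strains apart in KO and in WT lenses. Whether the strains differ in the sequences that these probe sets match was not tested.

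**Figure D1:**
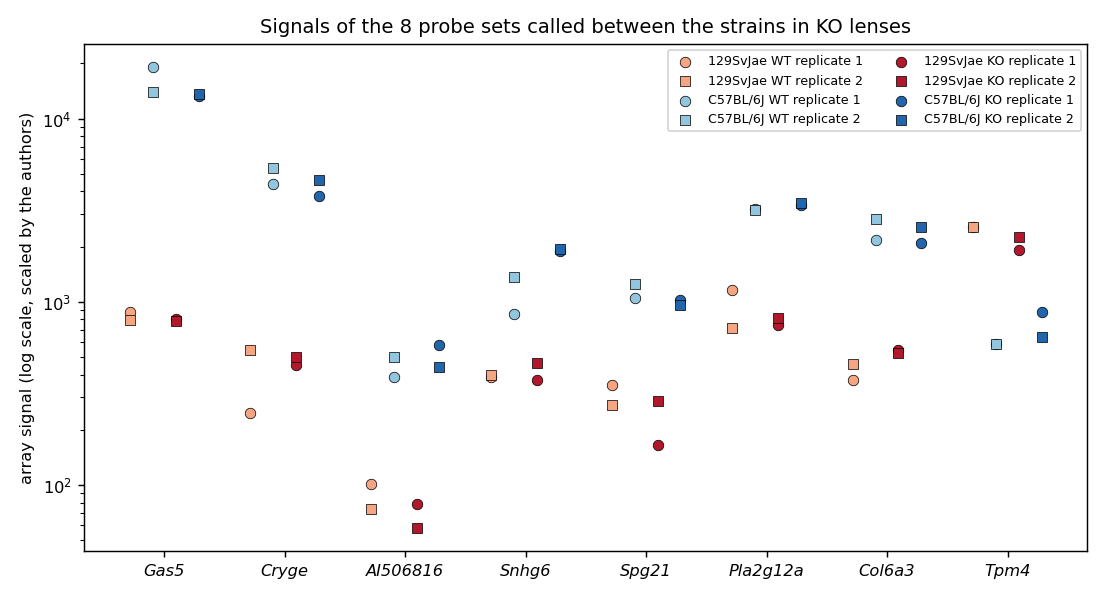
Array signals on a log scale for the 8 probe sets called between the strains in KO lenses, with 1 point per array, circles for replicate 1 and squares for replicate 2. Gas5 sits between 780.9 and 802.4 on the 129SvJae KO arrays and between 13296 and 13534 on the C57BL/6J KO arrays, and for each probe set no KO array of a strain falls among those of the other.

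Gas5 had signals of 802.4 and 780.9 in 129SvJae KO, against 13296 and 13534 in C57BL/6J KO. The replicates of either strain lay within a few percent of each other while the strains stood far apart. The mean was 16.9-fold higher in C57BL/6J KO (log2 ratio 4.08, SE 0.20, adjusted p 6.66e-07), and the ratios were 4.05 and 4.12 within the sessions. In WT lenses the ratio was 4.29 (SE 0.20), from signals of 882.3 and 790.1 against 19106 and 14026. The strain difference did not depend detectably on the genotype (limma's interaction p 0.471). A second, dimmer probe set of Gas5 read 20.4 and 74.2 against 254.2 and 353.5, with a log2 ratio of 2.95 (SE 0.67) and an adjusted p of 0.303. A further dim one read 8.5 and 45 against 93.2 and 53.9, with a log2 ratio of 1.86 (SE 1.01).

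Snhg6, another host of snoRNAs, had signals of 373.6 and 462.8 in 129SvJae KO, against 1889 and 1936 in C57BL/6J KO. Both C57BL/6J arrays were above both 129SvJae arrays, at 4.57 times their mean (log2 ratio 2.20, SE 0.27, adjusted p 0.00477). The ratio in WT lenses was 1.46 (SE 0.27), with an interaction p of 0.0772. A dim second probe set read 55 and 29.2 against 99.5 and 64.8 (log2 ratio 1.003, SE 0.76). The other measured hosts were not called. Of the 6 snoRNA hosts tested, these 2 were called, against 0.106% of the 6607 genes tested, and the median log2 ratio of the list was 0.44. Like all gene lists here, this one was chosen with earlier results of these data known. Both called hosts are also in the study's list from these arrays, so that the share is not independent evidence about such hosts. Epb41l4aos read 331.8 and 383.5 against 542.3 and 540.6, a log2 ratio of 0.60 (SE 0.30, adjusted p 0.999). Snhg1, Snhg5 and Nop56 had overlapping arrays, with log2 ratios of -0.49, -0.23 and 0.28.

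Cryge, which encodes γE-crystallin of the fiber cell cytoplasm, was represented by 4 probe sets that did not give 1 answer. The called one read 449.7 and 501.2 in 129SvJae KO, against 3792 and 4609 in C57BL/6J KO, so that the strains stood apart by more than either pair of replicates. The mean was 8.84-fold higher in C57BL/6J KO (log2 ratio 3.14, SE 0.31, adjusted p 0.00129), and the WT ratio was 3.73 (SE 0.31). The remaining 3 probe sets had overlapping arrays. A first one, marked f, read 46552 and 34845 against 50227 and 37587, a log2 ratio of 0.11 (SE 0.29). A second one marked f gave a log2 ratio of 0.21 (SE 0.31), and the last one of -0.03 (SE 0.29). The mark f in a probe set's name stands for probes that match several members of a sequence family, as the γ-crystallins are, and the called probe set lacks that mark. Which of the near copies the called probe set follows was not tested.

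The crystallins as a group had small strain ratios. Of 11 crystallin genes on the array 10 were tested, and by the probe set with the highest signal of each gene 9 ratios were positive and 1 was negative, against 52.5% positive among all genes tested. None was called, and the median log2 ratio was 0.11. αA-crystallin (Cryaa), a chaperone of the lens, read 49552 and 31300 in 129SvJae KO, against 55677 and 38474 in C57BL/6J KO. The replicate 1 array was the higher in both strains, and the log2 ratio of 0.23 (SE 0.32) was smaller than its error. The brightest crystallin signals, those of the Cryge probe sets marked f among them, lay near the highest of their arrays. Those highest signals were 50630 and 34977 in 129SvJae KO, against 55677 and 39699 in C57BL/6J KO. Whether ratios are compressed at such levels was not tested. Crygd gave a log2 ratio of 0.15 (SE 0.33), Crygc one of 0.17 (SE 0.26), Crygb one of 0.02 (SE 0.24) and Crygs one of 0.11 (SE 0.26). Cryz, a quinone reductase counted here with the crystallins, had the 1 negative ratio, at -0.43 (SE 0.30), with arrays that did not overlap. It is not an α-, β- or γ-crystallin, and its mean signal over the 4 KO arrays was 546. With each array centred on its median, 6 ratios were positive and 4 negative, so that the sign of the small ones follows the scaling.

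**Figure D2:**
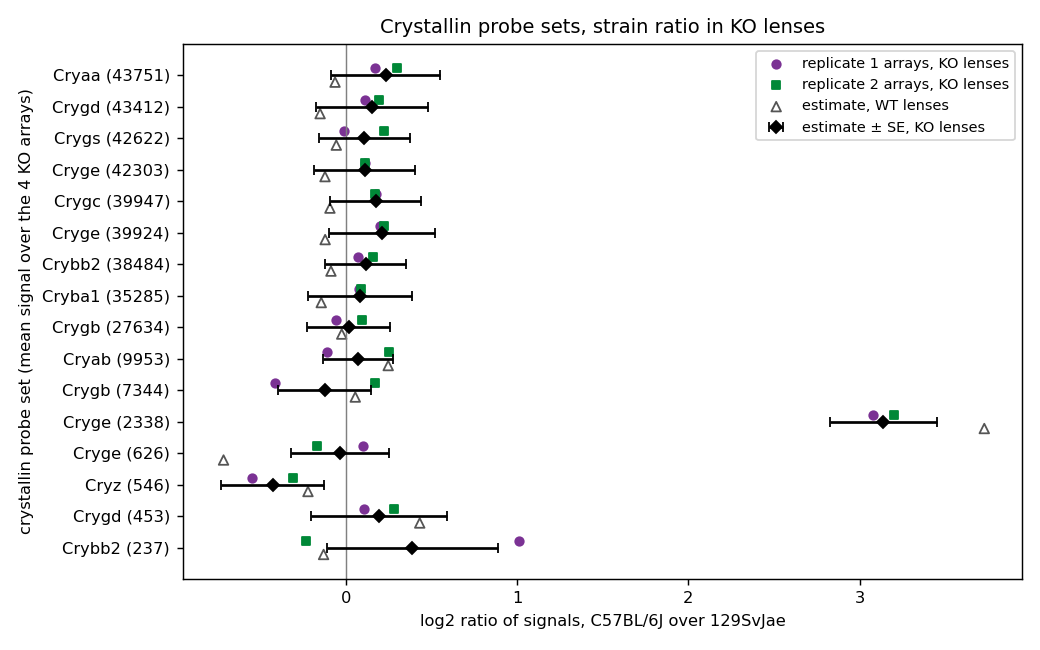
Log2 ratio of signals, C57BL/6J over 129SvJae, for each tested crystallin probe set, ordered by the mean signal over the 4 KO arrays. Diamonds give the estimate with its standard error in KO lenses, circles and squares the ratio of the replicate 1 and the replicate 2 arrays, and open triangles the estimate in WT lenses. The Cryge probe set at 3.14 stands alone and the other KO estimates lie between -0.43 and 0.39.

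Col6a3 encodes a chain of collagen VI, a microfibril of basement membranes and connective tissue. It had signals of 547.8 and 523.6 in 129SvJae KO, against 2088 and 2552 in C57BL/6J KO. The mean was 4.33-fold higher in C57BL/6J KO (log2 ratio 2.11, SE 0.24, adjusted p 0.00241) and the WT ratio was 2.59 (SE 0.24). The partner chains gave ratios of the other sign. Col6a1 read 334.3 and 232.8 against 143.6 and 138.5, a log2 ratio of -0.98 (SE 0.51). Col6a2 read 116.8 and 70.3 against 57.1 and 25.4, one of -1.25 (SE 0.68). Both were lower on each C57BL/6J array without passing the test (adjusted p 0.999 each). Among 40 tested genes of the lens capsule and extracellular matrix 28 ratios were positive, against 52.5% of all genes, with a median of 0.14. With each array centred on its median 23 were positive, with a median of 0.05, and in WT lenses the median was -0.07. The 1 call was that of Col6a3, against 0.106% of all genes called. Nid1, which links laminin to collagen IV in basement membranes, read 259.1 and 331 against 467.7 and 638.3, a log2 ratio of 0.90 (SE 0.33, adjusted p 0.999). The 4 tested fibroblast markers all had positive ratios (median 0.79), as had the 4 endothelial ones (median 0.63), and none of them had an unadjusted p under 0.05. The part of these cells in the ratios was not tested.

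Pla2g12a encodes a secreted phospholipase A2. Its called probe set read 745.1 and 813 in 129SvJae KO, against 3390 and 3446 in C57BL/6J KO, which is 4.39 times as high (log2 ratio 2.13, SE 0.24, adjusted p 0.00241). The replicates were tight in both strains. A second probe set of the gene read 109.8 and 159.1 against 98.7 and 103.7, with a log2 ratio of -0.39, so that the gene's probe sets disagree. Spg21, the gene of maspardin, read 165.3 and 287 against 1020.9 and 955.5 (log2 ratio 2.18, SE 0.31, adjusted p 0.0195). AI506816, which has no established function, read 78.1 and 58.2 against 577.6 and 441.2 (log2 ratio 2.90, SE 0.43, adjusted p 0.0210). Another probe set of it was dim, at 87.6 and 35.3 against 106.4 and 37.8, and gave 0.19 (SE 0.78). The called probe sets of Pla2g12a and Spg21 carry the mark f described for Cryge, and that of AI506816 the mark r, given to probes chosen with some design rules dropped. The WT ratios of the 3 called probe sets were 1.81, 1.89 and 2.35, each positive as in KO lenses.

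Tpm4 was the single probe set called lower. Tropomyosins are coiled-coil proteins that run along actin filaments and set which other proteins bind them. The signals were 1922 and 2242 in 129SvJae KO, against 879.3 and 638.9 in C57BL/6J KO, with the strains apart and the C57BL/6J arrays the less alike. The log2 ratio was -1.47 (SE 0.23, adjusted p 0.0294), and it was -1.13 and -1.81 within the sessions. In WT lenses it was -2.13 (SE 0.23), with an interaction p of 0.0606. Of 39 tested genes of the actin, tropomyosin and band 4.1 cytoskeleton 23 ratios were positive, with a median of 0.04. Epb41l4a, a band 4.1 protein gene, read 213.4 and 266.7 against 610.7 and 694.5 (log2 ratio 1.45, SE 0.30, adjusted p 0.189).

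With the scan session as a block 15 probe sets were called, 8 higher and 7 lower. Those gained were Erdr1 among the higher, and Bckdhb, Ctsl, Pgam2, Dbi, Dad1 and 1810058I24Rik among the lower. Adjusted p-values in that fit were 0.00171 for Erdr1, 0.0173 for Bckdhb, 0.0322 for Pgam2, 0.0468 for Ctsl and 0.0482 for 1810058I24Rik. Leaving out arrays 1 at a time showed how far these calls rest on 2 arrays a group. Gas5 was called in each of the 8 fits. Without C57BL/6J KO replicate 2 it was the only call, and without replicate 1 of either KO group the calls were Gas5, Cryge and Col6a3. Without 129SvJae KO replicate 2 the calls of AI506816 and Tpm4 were lost. With 2 arrays against 2, an exact permutation test cannot go below a two-sided p of 0.333, so that the calls rest on the variance that limma shares across probe sets.

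Past the fold and level criteria with an unadjusted p of at most 0.01 were 78 probe sets, 0.861% of those tested, with 48 higher (0.53%) and 30 lower (0.331%) in C57BL/6J KO. They stood for 66 genes. This rule carries no correction for the number of tests, and the probe sets below that were not called are given as values. The ratios were those of the KO arrays, while the WT arrays shared in the estimated spread behind the p. With the 4 KO arrays alone 100 probe sets passed, of which 68 were among the 78. In WT lenses 72 of the 78 had the same sign, against 55.7% of all tested probe sets. The median log2 ratio of the 48 was 1.69 in KO and 1.14 in WT lenses. That of the 30 was -1.28 in KO and -0.85 in WT lenses. Since the choice was made on the KO ratio, the larger medians there are in part fixed by it. In 14 of the 78 the mean of a KO group was under 50, and of these 11 had the same sign in WT lenses. Of the 64 with both means at or above 50, 61 had it. In all 78 the KO arrays of the strains did not overlap, against 2971 of the 9059 tested. For genes named for a small p, lack of overlap is therefore largely set by that choice.

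**Figure D3:**
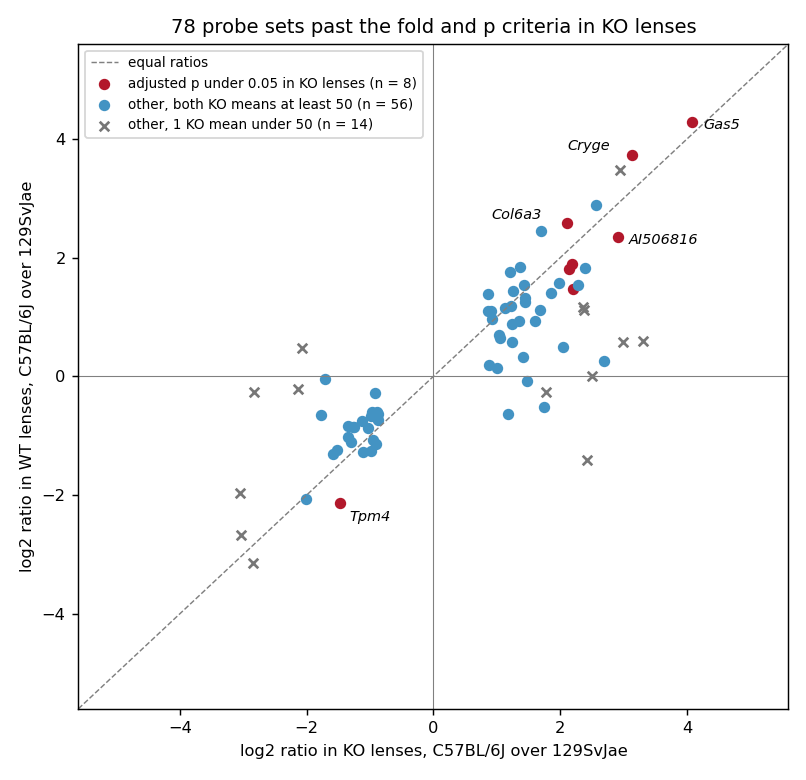
Log2 ratio, C57BL/6J over 129SvJae, in KO lenses (horizontal) against WT lenses (vertical) for the 78 probe sets past the fold and p criteria in KO lenses. Red points are the 8 called probe sets, crosses the 14 with a KO mean under 50, and the dashed line marks equal ratios; 72 of the 78 points lie in the quadrants where both ratios have the same sign.

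Bckdhb and Hebp1 were the genes of their lists past the criteria. Bckdhb encodes a subunit of the branched-chain ketoacid dehydrogenase, which commits leucine, isoleucine and valine to breakdown. It read 1394 and 1752 in 129SvJae KO, against 487.4 and 563.2 in C57BL/6J KO, with a log2 ratio of -1.58 (SE 0.27, adjusted p 0.0627). Hebp1, a heme-binding protein gene, read 330.6 and 340.7 against 41.2 and 40.3 (log2 ratio -3.04, SE 0.54, adjusted p 0.0755). The arrays of the strains did not overlap in either gene, and both missed the threshold by little. Their WT log2 ratios were -1.31 and -2.67. The 34 tested genes of the citrate cycle and branched-chain breakdown had a median of -0.14 and the 23 of iron, copper and heme handling one of -0.01. The uncharacterized transcript 1810058I24Rik read 1354 and 1334 against 509.5 and 588.3 (log2 ratio -1.30, SE 0.23, adjusted p 0.0726).

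Several wide ratios past the criteria came from dim probe sets and were not called. Tmem30b, which encodes a subunit of lipid flippases, read 20.4 and 7.2 in 129SvJae KO, against 134.4 and 107.9 in C57BL/6J KO (log2 ratio 3.31, SE 0.86, adjusted p 0.520), and its WT ratio was 0.60. Zfp787, a zinc finger gene, read 50 and 56.5 against 505.5 and 232.6 (log2 ratio 2.69, SE 0.56, adjusted p 0.189), and its WT ratio was 0.26. For both, the KO arrays of the strains did not overlap and the WT ratio was much the smaller. The probe set of Zfp787 carries the mark f described for Cryge. Tbc1d15, a GTPase-activating protein gene, read 67.6 and 66.4 against 296.2 and 418.6 (log2 ratio 2.39, SE 0.48, adjusted p 0.184), while a brighter probe set of it gave 0.20. On the lower side Gfer, a sulfhydryl oxidase of mitochondria, read 416.5 and 659.1 against 69.9 and 242.2 (log2 ratio -2.01, SE 0.62, adjusted p 0.884), with a WT ratio of -2.07. Taf6, a subunit of the TFIID complex, read 165.7 and 172.8 against 39.6 and 37.6 (log2 ratio -2.13, SE 0.54, adjusted p 0.481), with a WT ratio of -0.21.

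Among 17 tested genes of glycolysis 10 ratios were positive and 7 negative, with a median of 0.10, and 2 genes were past the criteria, both lower, against 0.378% of all genes. Pgk1, which makes ATP from bisphosphoglycerate, read 5336 and 4519 in 129SvJae KO, against 2648 and 2309 in C57BL/6J KO (log2 ratio -0.99, SE 0.20, adjusted p 0.184). Pgam2, a phosphoglycerate mutase, read 11928 and 11955 against 6142 and 6975 (log2 ratio -0.87, SE 0.18, adjusted p 0.204). Both strains' replicates were close, and the 2 genes encode successive steps of the pathway. The WT log2 ratios were -1.26 and -0.73. Hexokinase 2 (Hk2), the entry step, went the other way, at 359.2 and 435 against 679.9 and 676 (log2 ratio 0.78, SE 0.25, adjusted p 0.961).

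Oxidative phosphorylation was the longest of the metabolic lists. Of 59 genes tested 15 ratios were positive and 44 negative, with a median of -0.09 against 0.03 for all genes tested, and none was called. Cox6a2, a subunit of cytochrome oxidase, read 541.7 and 509.6 in 129SvJae KO, against 266.5 and 301.4 in C57BL/6J KO (log2 ratio -0.89, SE 0.28, adjusted p 0.884). Another subunit gene, Cox6c, read 5562 and 5689 against 8488 and 8747 (log2 ratio 0.62, SE 0.18, adjusted p 0.700). Atp5o of the ATP synthase read 3336 and 3432 against 2146 and 2335 (log2 ratio -0.60, SE 0.19, adjusted p 0.926). The replicates of these 3 genes were tight and their directions differed. The count of negative ratios was 36 after quantile normalization and 50 with each array centred on its median.

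The proteasome and ubiquitin genes, through which most short-lived proteins are removed, leaned to one side in small steps. Of 47 tested 10 ratios were positive and 37 negative, with a median of -0.21. None was called, 3 were lower and none higher past the criteria, against 0.378% of all genes lower, and 7 were lower with an unadjusted p under 0.05, against 1.85% of all genes. The arrays of the strains did not overlap in 18 genes that were lower and in 1 that was higher, against 15.4% and 17.3% of all genes. Within the sessions the median was -0.17 and -0.39, and in WT lenses it was -0.13. Under quantile normalization 36 of the 47 ratios were negative, and 41 with each array centred on its median. These counts describe genes of a shared complex, which are not independent of each other.

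Psmd10, the gene of the assembly chaperone gankyrin, read 347.5 and 397.1 in 129SvJae KO, against 130.6 and 163 in C57BL/6J KO (log2 ratio -1.35, SE 0.39, adjusted p 0.731). Psmd4, a ubiquitin receptor of the proteasome, read 2762 and 2630 against 1761 and 1328 (log2 ratio -0.82, SE 0.24, adjusted p 0.737). The ATPase subunit gene Psmc3, by a probe set marked f, read 1128 and 1476 against 502.8 and 930.1 (log2 ratio -0.92, SE 0.30, adjusted p 0.961). In each the lowest 129SvJae array was above the highest C57BL/6J array, as in 15.4% of all genes. The choice of these genes by a small p largely sets this. Sae1, a subunit of the enzyme that activates SUMO, gave a log2 ratio of -0.89 (SE 0.26, adjusted p 0.772).

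**Figure D4:**
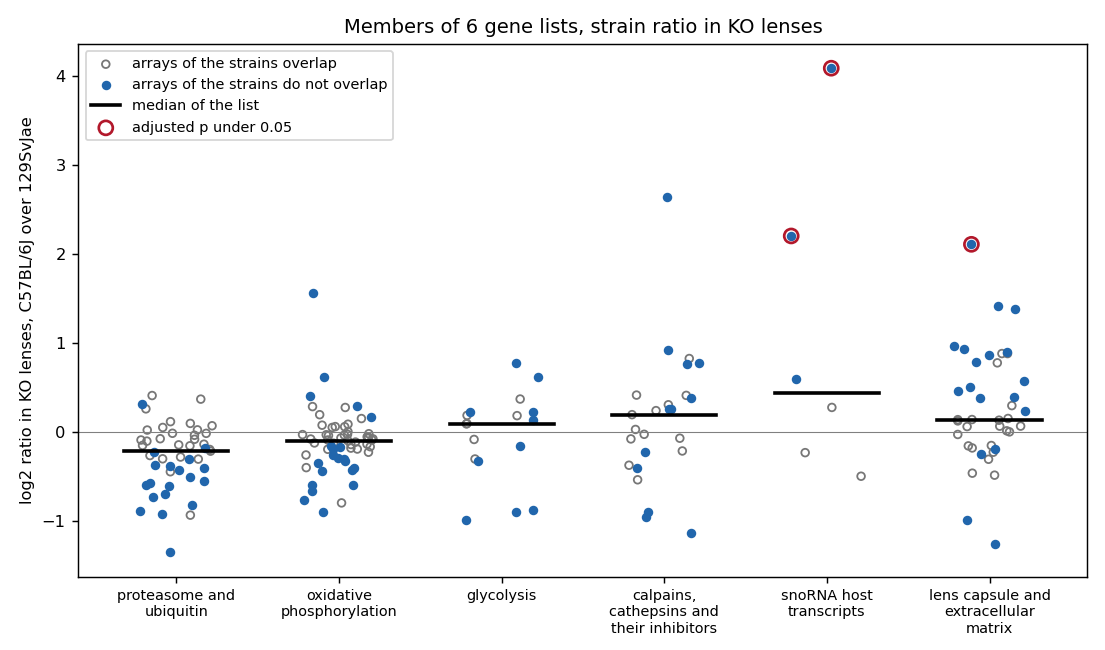
Log2 ratio in KO lenses, C57BL/6J over 129SvJae, of each tested gene in 6 gene lists. Filled points are genes whose arrays do not overlap between the strains, open points those that overlap, red rings the genes called, and bars the list medians, which are -0.21 for proteasome and ubiquitin, -0.09 for oxidative phosphorylation and 0.44 for snoRNA hosts.

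Proteases that cut crystallins were read next. Cathepsin L (Ctsl), a lysosomal cysteine protease, read 5227 and 6073 in 129SvJae KO, against 3000 and 2849 in C57BL/6J KO. The arrays did not overlap, and the log2 ratio was -0.95 (SE 0.19, adjusted p 0.189), with -1.07 in WT lenses. Capn3, whose lens form is a calcium-dependent protease, read 2607 and 3418 against 2310 and 2197 (log2 ratio -0.41, SE 0.27, adjusted p 0.999). Capn1, a ubiquitous calpain, read 203.8 and 169.1 against 329.5 and 377.1 (log2 ratio 0.93, SE 0.54, adjusted p 0.999). Members of the list did not go 1 way: of 25 tested genes 14 ratios were positive and 11 negative, with a median of 0.20. Dbi, which encodes the acyl-CoA binding protein, was in this list and in that of lipid mediators. It read 5899 and 7290 against 2800 and 3200 (log2 ratio -1.13, SE 0.37, adjusted p 0.972).

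The 42 heat shock proteins and chaperones tested split into 20 positive and 22 negative ratios, with a median of -0.01 whose sign turned under quantile normalization. None was called or past the criteria. The small heat shock protein gene Hspb1 was dim, at 6.7 and 33.3 in 129SvJae KO, against 121.2 and 25.9 in C57BL/6J KO. Its arrays overlapped (log2 ratio 1.91, SE 1.36), and signals this dim do not settle a strain difference. The study, which names the gene Hsp25 and took it as absent from the array, reported it higher in C57BL/6J KO by real-time PCR. Hsf4, a heat shock factor of the lens, gave a log2 ratio of 0.00. The 7 connexins tested all had positive ratios with overlapping arrays and a median of 0.14, and with each array centred 5 of 7 were positive. Gja1, the gene of α1Cx43, read 1129 and 1301 against 1366 and 1148 (log2 ratio 0.05, SE 0.29).

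Stress response genes split by member. Of 24 tested 15 ratios were positive and 9 negative, with a median of 0.13 and no call. Gadd45a, a growth arrest and DNA damage gene, read 3518 and 3326 in 129SvJae KO, against 1747 and 1993 in C57BL/6J KO (log2 ratio -0.87, SE 0.22, adjusted p 0.453). Ppp1r15a, which directs the phosphatase that reverses the translation block, read 747.2 and 461.3 against 1109 and 1605 (log2 ratio 1.18, SE 0.41, adjusted p 0.999). Both genes had arrays that did not overlap, in opposite directions. Atf5, a transcription factor of the same response, read 241.2 and 282.2 against 478.3 and 473.4 (log2 ratio 0.87, SE 0.35, adjusted p 0.999).

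Of the genes of growth control, Erdr1 came closest to a call. It read 1160 and 843.1 in 129SvJae KO, against 3891 and 3295 in C57BL/6J KO (log2 ratio 1.86, SE 0.31, adjusted p 0.0604). With the replicate number as a block the adjusted p was 0.00682. Its probe set carries the mark f, and a further one for the gene gave a log2 ratio of -0.27. Sash1, a signaling adaptor gene, read 161.5 and 193.1 against 442.8 and 456.8 (log2 ratio 1.35, SE 0.32, adjusted p 0.395). Alox15, a lipoxygenase of arachidonic acid, read 169.2 and 226.3 against 472.5 and 831.6 (log2 ratio 1.68, SE 0.41, adjusted p 0.439). Each of the 3 genes was higher on both C57BL/6J KO arrays than on either 129SvJae KO array. Their WT log2 ratios were 1.40, 0.94 and 1.11.

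Trafficking genes past the criteria were Trappc5, a subunit of the tethering complex of early secretory vesicles, and Tom1, an endosomal sorting protein. Trappc5 read 169.7 and 185.4 against 561.2 and 595.4 (log2 ratio 1.70, SE 0.37, adjusted p 0.240), and its WT ratio was 2.44. Tom1 read 1714 and 2033 against 3163 and 3891 (log2 ratio 0.91, SE 0.25, adjusted p 0.565). The list of 58 genes had 36 positive ratios and a median of 0.07, whose sign turned with each array centred on its median. Rsad2, an interferon-stimulated antiviral gene, read 87 and 49.4 against 455.7 and 329.3 (log2 ratio 2.56, SE 0.63, adjusted p 0.439). Of the 19 interferon-stimulated genes tested 13 ratios were positive, with a median of 0.56, most of them on dim signals, while Mx1 and Mx2 had ratios of -1.44 and -1.45. Within the sessions the median was 0.06 and 0.27.

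**Figure D5:**
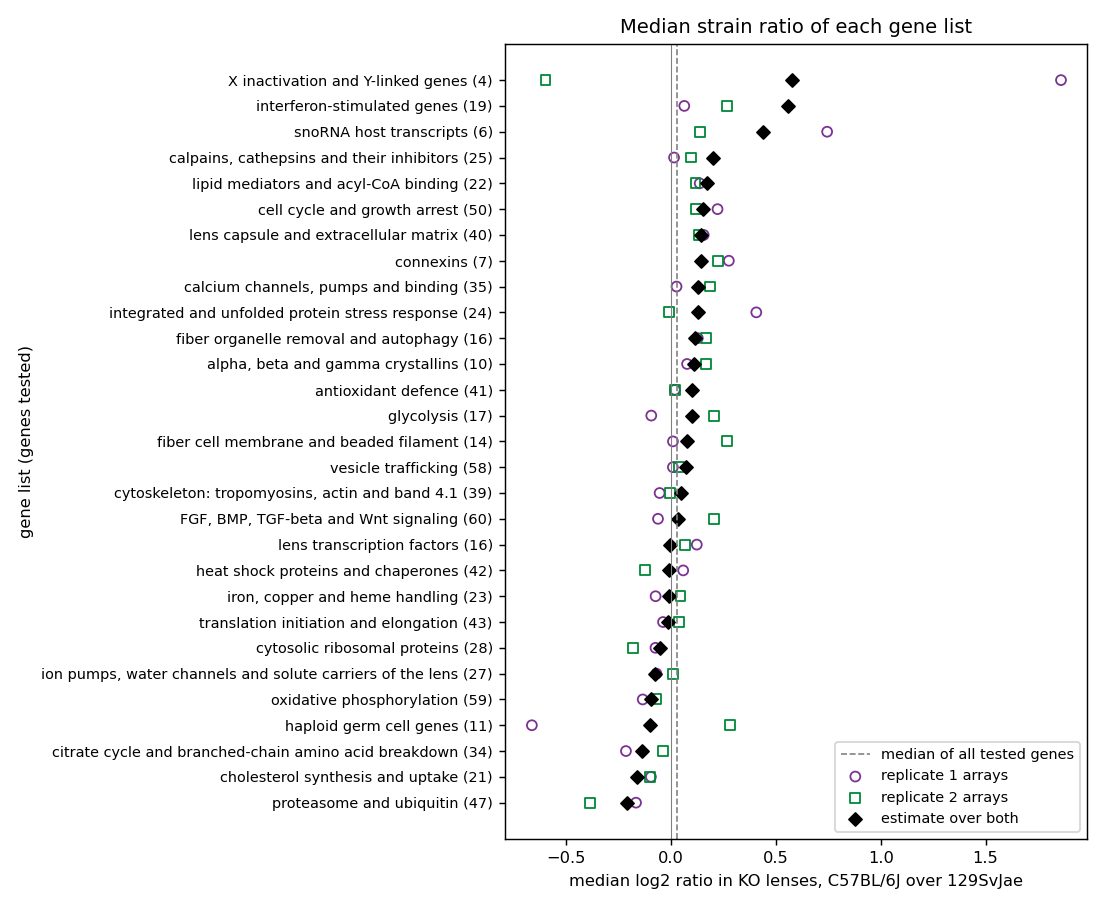
Median log2 ratio in KO lenses, C57BL/6J over 129SvJae, of each of the 29 gene lists, with the number of genes tested in brackets. Circles and squares give the median over the replicate 1 and the replicate 2 arrays, diamonds the median of the estimates over both, and the dashed line the median of all tested genes at 0.03; proteasome and ubiquitin lies lowest at -0.21.

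The study's own list of strain differences was read on the KO arrays. It was chosen by the study on these arrays, so that its direction on them is not independent evidence. The study also measured some of the entries, among them Gas5, Col6a3 and Bckdhb, by real-time PCR. It reported the array's direction in KO lenses for each of those, with a smaller ratio for Gas5 and a larger one for Bckdhb. Of its 46 entries 42 were matched to a probe set, with 25 higher and 17 lower in C57BL/6J KO. Called were 3 higher and 1 lower, Gas5, Col6a3, Snhg6 and Tpm4. Past the criteria were 14 higher and 13 lower. Entries were matched by accession or symbol, which left out Sae1, listed under an older symbol, and took for Tbc1d15 the probe set with the log2 ratio of 0.20. Sae1 and the other probe set of Tbc1d15 were both past the criteria, so that these counts are lower bounds. Cryge, Pla2g12a, Spg21 and AI506816 are not in the list.

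The difference between the strain ratios in KO and WT lenses was tested as an interaction in limma. It was called in 0 of 9059 probe sets (0%), and 191 had an unadjusted p under 0.05, or 2.11%. Of the 8 called probe sets none had an interaction p under 0.05. The smallest interaction p of a named gene was that of Sema6c, a semaphorin gene, at 0.00168, with log2 ratios of 1.11 in KO and -1.97 in WT lenses. Stat5b, a transcription factor of cytokine signaling, had ratios of -1.70 and 2.18 (interaction p 0.00333). Both were dim genes whose KO arrays lay below 400 in signal. H2-T18, a non-classical MHC gene with a probe set marked f, read 767 and 547.2 against 158.4 and 247.9 in KO lenses. Its log2 ratio was -1.71 (SE 0.41) there and -0.04 in WT lenses (interaction p 0.0138). Xist, the transcript of the inactive X chromosome, had log2 ratios of 0.42 in KO and -1.55 in WT lenses (interaction p 0.00914). Adjusted over all probe sets, none of these genes passed. Whether the pools differed in the share of each sex was not tested. Without 129SvJae WT replicate 2, Prm1 was the 1 probe set called for the interaction, at a log2 difference of 5.38 (adjusted p 0.0395).

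Genes beside Gja3 were read because a strain that received a disrupted gene by breeding can keep donor sequence around it. Of the 40 tested neighbours, 20 on each side in the order of the GRCm38.p6 gene table, 0 were called and 0 were past the criteria in KO lenses. Only Fdft1, an enzyme of cholesterol synthesis, had an unadjusted p under 0.05, with a log2 ratio of -0.67. The median absolute log2 ratio of the neighbours was 0.358 in KO lenses, against 0.309 over all genes, and 0.408 against 0.353 in WT lenses. An interaction p under 0.05 was found for 3 of the 40, Adcy4, Cma1 and Fdft1, against 1.95% of all genes, and none was called. Their log2 ratios were 0.82, 1.61 and -0.67 in KO lenses and -2.18, -1.77 and 0.19 in WT lenses. Over the KO arrays the signals of Adcy4 ran from 20.5 to 111.2 and those of Cma1 from 21.4 to 93.6. Both were dim, with an SE of 0.91 and 0.92 for the KO ratio. Fdft1 was brighter, from 697 to 1163.8 (SE 0.28). The share of 3 in 40 therefore rests in part on dim signals, and whether donor sequence has a part in it was not tested.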

How the data were processed

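Lens RNA was hybridized to 8 Affymetrix MG-U74Av2 arrays, 2 in each of 4 groups. The deposited intensity values are signals that the authors computed with Microarray Suite (MAS5, version not given in the sources used here) and scaled to a mean of 250. Here log2 of the deposited signals was fitted with limma 3.58.1 in R 4.3.3, with 4 group means and a variance trend. A signal of 0 or less was set to 1. Group means gave 4 residual degrees of freedom. Ratios are C57BL/6J over 129SvJae. Gene names came from the platform annotation: of the 12422 probe sets 10833 had 1 symbol, 396 several and 1193 none.

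The members and gene lists were chosen with earlier results of these data known. Named were called probe sets, the 12 highest and 12 lowest past the criteria, up to 4 genes of each list with the smallest p, entries of the study's list past the criteria, the 6 smallest interaction p-values, genes the study singled out, and neighbours of Gja3. A gene with several probe sets was given by that of the study's list or by the highest signal. Snhg5, Nop56, Dad1, Adcy4 and Cma1 were named after their values were seen.

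Replicate numbers were taken to pair the arrays: residuals of same-numbered arrays correlated in all 6 pairs of groups (0.129 to 0.216), and the run records place replicates 1 in a single scan session. No array was a copy of another. Alternatives covered normalization, level filter, offset, variance prior, array weights, blocks, the methods' t-test and each array left out. The fit was tested on simulated data. The precision is limited by 2 arrays a group.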

Additional observations from a re-analysis of the deposited data

How the results depend on the processing

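Over 24 alternatives, the counts of probe sets called (8), past the criteria (78) and called for the interaction (0) stayed within 1.5 times of their value in 55 cases and moved further in 13. Called were 3 with each array centred on its median (Cryge, Gas5 and Pla2g12a), 0 without the variance trend, 0 by the methods' t-test after adjustment (0 on log2 and 0 on linear signals), 15 with a block for the scan session, and 22 (12 higher, 10 lower) from the 4 KO arrays alone. The replicate block gave 9 calls, the 8 and Erdr1, and changed no other call. With the block and the 4 KO arrays alone 63 were called (36 higher, 27 lower) and 154 were past the criteria. On log2 signals the methods' t-test left 42 past the criteria, 15 of them among the 78, and on linear signals 59, of which 18 were. With 1 array left out the calls ranged from 1 to 11, the number past the criteria from 55 to 102 and the interaction calls from 0 to 1. Without C57BL/6J KO replicate 2 the split past the criteria turned to 41 higher and 61 lower. Of the named genes that were called or past the criteria 6 changed sign, each in a second probe set of the gene: Cryge (-0.03465), Pla2g12a (-0.3856), Erdr1 (-0.2732), Cdv3 (0.01427), F2r (0.6167) and Eif2s2 (0.7114). The cause was not tested. Named genes past neither rule were left out of this count. Medians under 0.1 in size changed sign with the scaling in 8 lists. Normalization moved the median of all tested probe sets from 0.0332 to 0.00113 (quantile) or -0.0625 (centred). Signals near 50 have large errors, which limits the dim genes.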
